A study of Homo sapiens with 3 samples.

Results

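Sorafenib is an oral kinase inhibitor used against hepatocellular carcinoma, and its known targets include RAF kinases and the receptors VEGFR and PDGFR. PLC-PRF-5 is an immortal line grown from a human hepatoma. The single-gene response of this line to sorafenib was read from 2 Illumina beadchips, 1 of cells given sorafenib for 24 h and 1 of cells given the solvent DMSO for 24 h. The sample labels give 10 μM sorafenib and the protocol field gives 50 μM, so the dose is not settled. A gene was included if a probe with 1 listed symbol had a detection p-value under 0.01 on both arrays, which held for 8922 of 20046 annotated genes on the chip. Another array of the series, of cells given a clickable sorafenib probe at the same stated doses and for the same time, is quoted only for single genes and shares the DMSO array as its control.

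Cells answer amino acid shortage or endoplasmic reticulum stress through the transcription factor ATF4, which raises genes of amino acid synthesis and import, and they answer low sterol through SREBP factors, which raise genes of cholesterol synthesis. Genes listed for ATF4, sterol and fatty acid synthesis were set apart here, and the account is mainly of the genes beyond those 3 lists. In hepatoma cells RAF and its downstream kinases MEK and ERK carry growth factor signals to the nucleus, where they raise AP-1 factors, cyclin D1 and their own inhibitors. Chemokines, which draw leukocytes to a tissue, growth factors, matrix proteins and Wnt targets are further groups of genes that tumour cells use to act on their surroundings.

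There was 1 array a side and no replicate, so no test between sorafenib and DMSO was possible and every difference below is a description of 2 arrays. Values are normalized intensities, in the arbitrary units of the scanner after background correction and quantile normalization, and differences are log2 of sorafenib over DMSO. At the detection limit 15268 probes were above background with DMSO and 15458 with sorafenib. Of the hepatocyte markers checked, 3 of 11 (ALB, KRT8 and KRT18) were above background on both arrays, with a summed intensity of 3433 with DMSO and 3282 with sorafenib, while ALB itself was dim at 48.1 and 38.7. None of 3 endothelial markers was above background on both arrays, 2 of 3 leukocyte markers (CD14 and CD68) and 1 of 5 fibroblast and stellate markers (ACTA2) were, and all 3 cholangiocyte markers (KRT7, KRT19 and SOX9) were. The summed intensity was 725 and 740 for the leukocyte markers and 2775 and 2829 for the cholangiocyte markers, with DMSO and sorafenib in that order, and ACTA2 was 274 and 177. The leukocyte sum does not show the difference of CD14 alone, which was 0.75. The cultures were of 1 line, so a marker above background does not by itself show another cell type. The part of these markers in the differences below was not tested. In RNA of whole cultures, fewer cells that express a gene and less of its RNA per cell cannot be told apart.

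Most genes lay close to no difference. The median over all 8922 genes was -0.01, the middle 95% lay between -0.55 and 0.56, and 96.2% of genes differed by less than 1.5-fold. With genes split by brightness into terciles, 3 groups of equal size, the spread narrowed with brightness, since the middle 95% of the dimmest tercile of genes lay between -0.60 and 0.63 and that of the brightest tercile between -0.45 and 0.46. At 2-fold, 17 genes (0.191%) were higher with sorafenib and 9 (0.101%) were lower. At 1.5-fold, 180 genes (2.02%) were higher and 162 (1.82%) were lower, and at 3-fold 4 (0.0448%) were higher and 0 were lower. Of all genes, 48.5% lay above 0 and 51.3% below it. Of the 17 genes 2-fold higher, 8 were on the ATF4 list, and of the 9 lower genes 2 were on the sterol list, which leaves 9 higher and 7 lower genes outside the lists set apart. The split between higher and lower moved with the scaling, to 11 higher and 32 lower with no normalization, where the median of all genes was -0.20, to 14 and 18 with median scaling, where it was -0.12, to 51 and 40 in the authors' normalized table and to 10 and 2 with a larger offset in the background correction. In the brightest tercile, 5 genes were 2-fold higher and 0 were 2-fold lower.

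**Figure D1:**
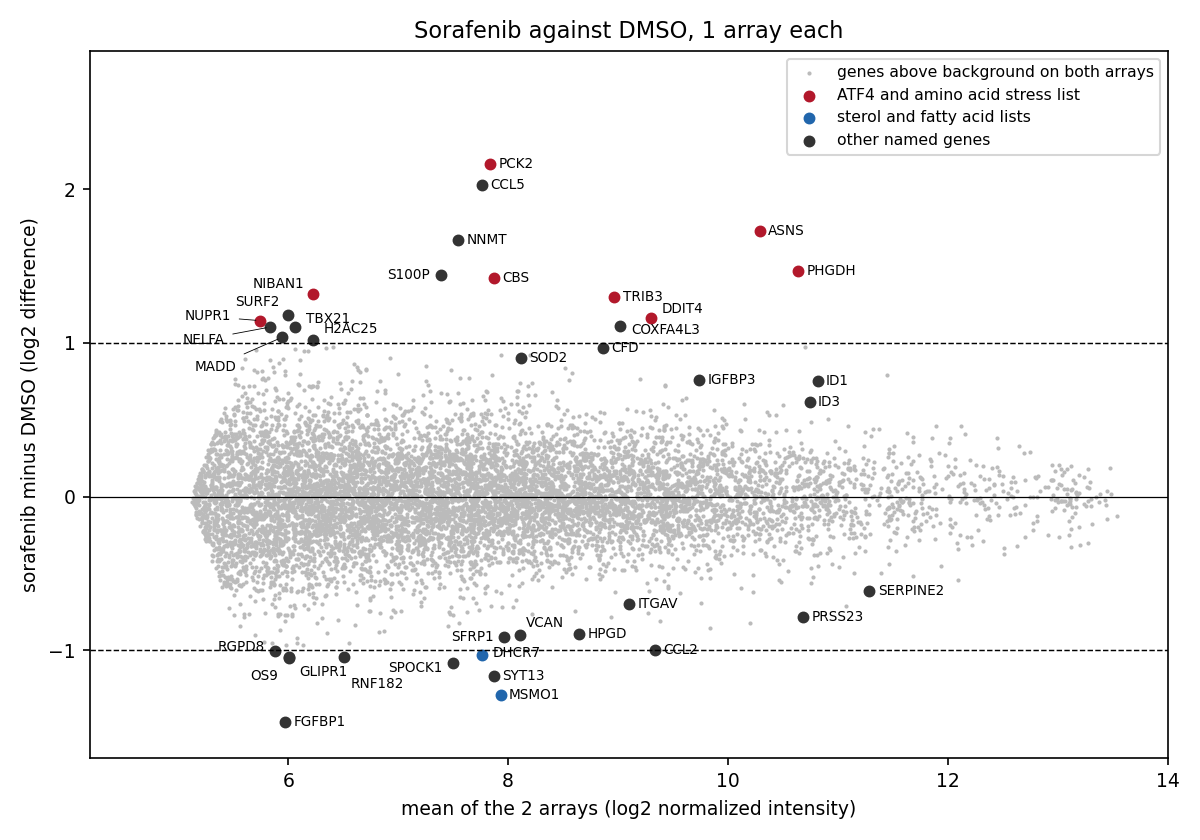
Difference between the sorafenib and DMSO arrays (log2, y axis) against the mean of the 2 arrays (log2 normalized intensity, x axis) for 8922 genes, 1 grey point a gene, with named genes in colour and dashed lines at 2-fold. The cloud narrows to the right, and CCL5, NNMT and S100P stand among the ATF4 genes at the top.

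Outside the lists set apart, the chemokine CCL5 had the largest difference. Its intensity stood at 107 on the DMSO array, 437 on the sorafenib array and 358 on the sorafenib probe array, and sorafenib was thus 4.08-fold above DMSO. NNMT, the enzyme that methylates nicotinamide, read 105 on the DMSO array, 334 on the sorafenib array and 309 on the sorafenib probe array, a 3.18-fold difference for sorafenib. S100P, a small calcium-binding protein found in several carcinomas, read 101 on the DMSO array, 276 on the sorafenib array and 285 on the sorafenib probe array, and sorafenib was 2.72-fold higher. Each of these 3 genes had 1 probe above background, and on both compound arrays all 3 were far above the DMSO array.

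COXFA4L3, a mitochondrial protein related to a cytochrome c oxidase subunit and formerly named C15orf48, was the brightest of the 9 higher genes outside the lists. It read 354 on the DMSO array, 763 on the sorafenib array and 684 on the sorafenib probe array, 2.16-fold higher with sorafenib. The other 5 genes past 2-fold were dim. SURF2, a nucleolar protein, read 42.5 on the DMSO array, 96.3 on the sorafenib array and 71.6 on the sorafenib probe array. NELFA, a subunit of the negative elongation factor complex, and TBX21, the T-box factor known from type 1 T helper cells, had differences of 1.10 and 1.10 with sorafenib, but only 0.13 and 0.21 between the sorafenib probe and DMSO. MADD and H2AC25, a regulator of RAB3 proteins and a histone H2A, lay just inside the limit at 1.04 and 1.02, and just outside it were the serine synthesis gene PSAT1 at 0.98 and TMEM145 at 0.97.

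CFD, the serine protease that starts the alternative complement pathway, had the next large difference among brighter genes, with 333 on the DMSO array, 653 on the sorafenib array and 576 on the sorafenib probe array. It lay just under 2-fold, at 0.97, and is named after its value was seen.

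FGFBP1, a secreted carrier that releases fibroblast growth factors from the matrix, was the lowest gene. It read 104 on the DMSO array, 37.7 on the sorafenib array and 46.3 on the sorafenib probe array, 2.76-fold lower with sorafenib, and its sorafenib value was close to the lowest intensity called above background, 34.2. SYT13, a member of the synaptotagmin family of vesicle proteins, read 351 on the DMSO array, 156 on the sorafenib array and 165 on the sorafenib probe array. SPOCK1, a secreted matrix proteoglycan, read 264 on the DMSO array, 124 on the sorafenib array and 123 on the sorafenib probe array. SYT13 and SPOCK1 were thus 2.25-fold and 2.12-fold lower with sorafenib, with nearly the same values on both compound arrays.

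The other lower genes past 2-fold outside the lists were dim, and their values on the sorafenib probe array were uneven. OS9, a lectin of endoplasmic reticulum degradation, read 92.2 on the DMSO array, 44.6 on the sorafenib array and 86.9 on the sorafenib probe array, so only the sorafenib array was low. GLIPR1 had differences of -1.05 for sorafenib and -0.59 for the sorafenib probe, and RNF182, a ubiquitin ligase, had -1.04 and -0.65. RGPD8, at -1.01 with sorafenib, is a member of a family of near-identical copies of RANBP2, so its probe may read several genes. CCL2, the monocyte chemokine, lay just short of the limit, with 913 on the DMSO array, 457 on the sorafenib array and 531 on the sorafenib probe array. It was the only one of the 15 lowest genes in the brightest tercile. Next below it in size were AARS2, the mitochondrial alanyl-tRNA synthetase, at -0.97, DEPDC1 at -0.97, the endosomal tether VPS39 at -0.95, MORC4 at -0.95 and the tetraspanin TSPAN7 at -0.95.

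Among the 15 highest genes outside the lists, 10 were in the dimmest tercile of genes, 3 in the middle tercile and 2 in the brightest tercile. Among the 15 lowest, 12 were in the dimmest tercile, 2 in the middle tercile and 1 in the brightest tercile. The extremes of the ranking were therefore drawn mostly from dim genes, where the spread over all genes was widest.

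**Figure D2:**
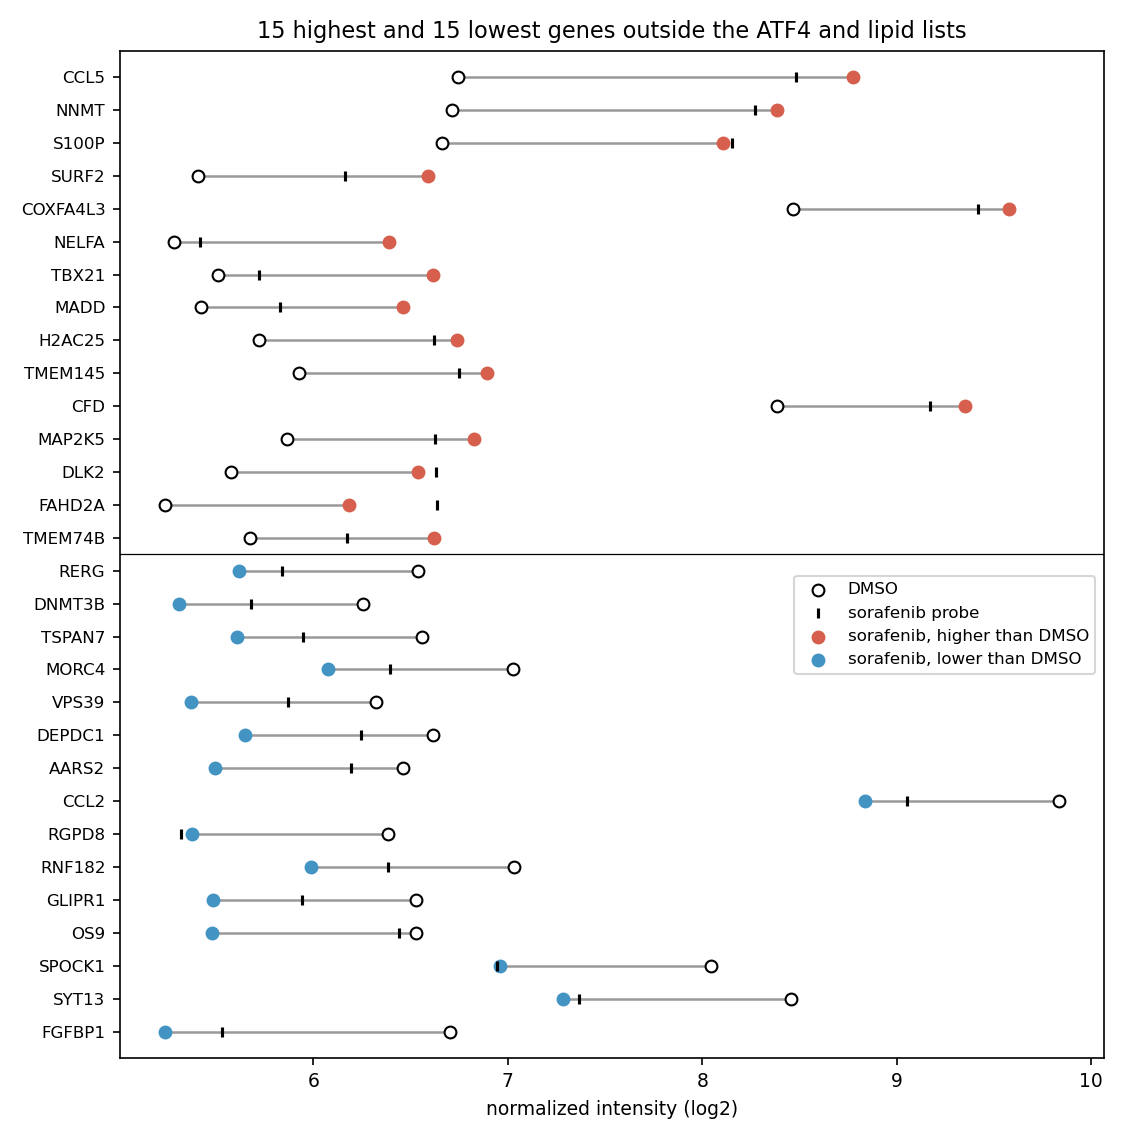
Normalized intensity (log2, x axis) of the 15 highest and 15 lowest genes outside the lists set apart on the DMSO array (open circle), the sorafenib array (filled circle) and the sorafenib probe array (tick). For CCL5, NNMT, S100P, SYT13 and SPOCK1 the tick lies near the filled circle, while for NELFA, TBX21 and OS9 it lies near the open one.

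The DNA letters upstream of these genes were set beside the values, because ATF4 and its C/EBP partners bind composite elements of the form TGATGNAA, where N is any base. RefSeq's promoter windows (GRCh38.p14) run from 250 bases before a gene's start to 50 bases after it. Of 35116 such windows of 300 bases, 3.62% held the 8 letters on either strand. Counted by gene, with a match in any of its windows, 2.55% of the 7301 measured genes that have a window held them. Among genes 1.5-fold higher, 4 of 16 in the lists set apart held the letters, and 5 of 131 outside them did (3.82%). Of genes 1.5-fold lower, 1 of 124 did (0.806%). The 16 were all on the list made for ATF4, so their share says nothing about sorafenib. A match is a description of letters and not of binding. The windows below are shown for ASNS, the asparagine synthetase gene of the ATF4 list, for S100P, which had the largest difference outside the lists among genes with a window that held the letters (CCL5, NNMT and CCL2 were not searched), and for RNF182, the lower gene that held them. Capitals mark the match, which begins 68 bases before the start in ASNS (chr7:97872359-97872658, minus strand), 123 bases before it in S100P (chr4:6693628-6693927, plus strand) and 171 bases before it in RNF182 (chr6:13924196-13924495, plus strand), and which is on the opposite strand in the last pair.
ASNS: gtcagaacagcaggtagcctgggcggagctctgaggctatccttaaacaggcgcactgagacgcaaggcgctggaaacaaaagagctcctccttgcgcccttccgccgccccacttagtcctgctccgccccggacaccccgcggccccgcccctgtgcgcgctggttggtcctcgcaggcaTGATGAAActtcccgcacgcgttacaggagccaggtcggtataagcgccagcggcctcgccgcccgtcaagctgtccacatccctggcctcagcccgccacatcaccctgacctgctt
S100P: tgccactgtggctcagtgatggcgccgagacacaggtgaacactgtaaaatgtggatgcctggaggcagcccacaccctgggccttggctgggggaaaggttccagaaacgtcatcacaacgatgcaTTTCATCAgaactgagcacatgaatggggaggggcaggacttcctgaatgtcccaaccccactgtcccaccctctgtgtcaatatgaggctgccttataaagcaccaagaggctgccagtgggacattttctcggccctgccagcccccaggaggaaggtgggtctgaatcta
RNF182: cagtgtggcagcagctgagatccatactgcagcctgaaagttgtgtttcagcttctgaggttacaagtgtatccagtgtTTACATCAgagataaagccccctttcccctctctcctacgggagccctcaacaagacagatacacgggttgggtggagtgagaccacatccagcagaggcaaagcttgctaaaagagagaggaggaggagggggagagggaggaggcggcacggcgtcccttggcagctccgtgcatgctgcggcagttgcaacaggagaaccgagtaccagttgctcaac
The log2 differences of these genes were 1.73 for ASNS, 1.44 for S100P and -1.04 for RNF182. RNF182 was the only gene 1.5-fold lower that held the letters, of 124, beside 2.55% of the measured genes with a window. Of 147 genes 1.5-fold higher 9 held them, but 4 of the 9 were on the list made for ATF4, so these counts are not compared.

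A further probe on the same gene checks the probe, not the culture. Of the 8922 genes, 2031 (22.8%) had 2 or more probes above background on both arrays. Across these genes the brightest probe and the second gave differences with a Pearson correlation of 0.38, with genes as points that share both arrays and are not independent replicates, and 62.8% of second probes had the same sign as the brightest. Of 33 genes whose brightest probe was 1.5-fold higher, 31 had a second probe above 0, beside 46.8% of second probes over all such genes, and 11 had one that was also 1.5-fold higher, beside 2.56%. Of 25 genes whose brightest probe was 1.5-fold lower, 20 had a second probe below 0, beside 52.98% over all, and 3 had one that was 1.5-fold lower, beside 2.76%. In neither direction was a second probe 1.5-fold the other way. Outside the lists set apart, the median of the second probe was 0.36 over the 29 higher genes and -0.31 over the 22 lower ones, so it lay in the same direction but was smaller than the 1.5-fold that chose the brightest.

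Outside those lists, 7 higher genes had both probes past 1.5-fold. SOD2, the mitochondrial superoxide dismutase, read 203 on the DMSO array, 378 on the sorafenib array and 408 on the sorafenib probe array, a difference of 0.90 on its brightest probe and 0.81 on the second. ID1, an inhibitor of helix-loop-helix factors that BMP signals raise, read 1389, 2339 and 2272 on the DMSO, sorafenib and sorafenib probe arrays, with 0.75 on the brightest probe and 1.30 on the second. SMOX, spermine oxidase, read 290, 505 and 570 on the same arrays, with 0.80 and 0.65. All 3 genes were thus higher on both compound arrays and on both of their probes.

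RBCK1, a subunit of the linear ubiquitin ligase complex, had 0.74 on the brightest probe and 0.62 on the second. NDUFA10, a subunit of respiratory complex I, had 0.66 and 0.91, and BCAS4 had 0.68 and 0.62. NUDT6, which lies antisense to the growth factor gene FGF2, had 0.82 and 0.59, but 0.24 on the third. Among lower genes outside the lists, only TSPAN7 passed with both probes, at -0.95 and -0.64.

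Some genes had probes that disagreed. MAP2K5, a kinase upstream of ERK5, had 0.96 on its brightest probe and -0.23 on the second, and HINT3 had -0.74 and 0.43. Both are named after their values were seen. MSMO1 of the sterol list had -1.29 on its brightest probe and 0.31 on the second, whereas DHCR7, the last enzyme of cholesterol synthesis, had -1.03 and -1.10.

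**Figure D3:**
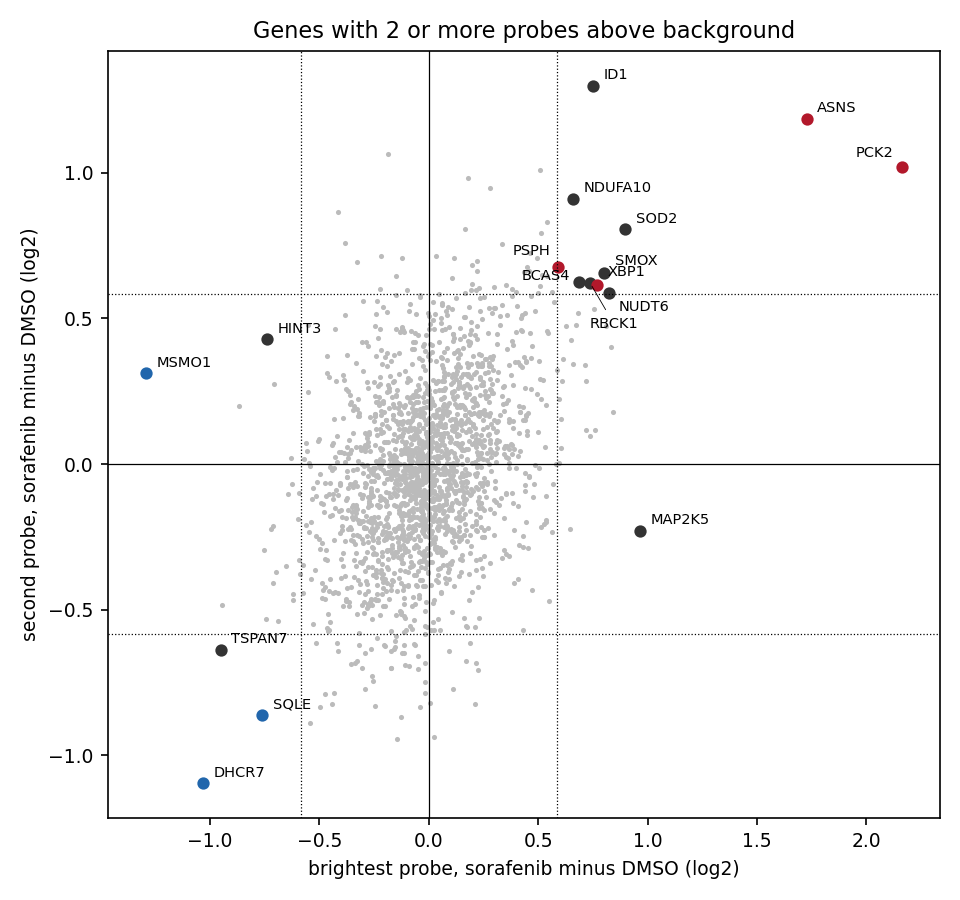
Difference between sorafenib and DMSO (log2) on the second probe (y axis) against the brightest probe (x axis) of each of 2031 genes, with dotted lines at 1.5-fold and named genes in colour (red for the ATF4 list, blue for the sterol list, black for others). ID1, SOD2 and NDUFA10 lie beyond the dotted lines on both axes, and MAP2K5 and HINT3 lie in opposite-sign quadrants.

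The 55 functional lists beyond those set apart had medians from -0.21 to 0.16, beside -0.01 over all genes. Of these, 45 lay between -0.1 and 0.1, 3 lay above and 7 below, and 21 lists had no member at 1.5-fold. The lists are described by their counts alone, and no list was tested. Their counts stand beside 2.02% of all genes 1.5-fold higher, 1.82% lower, 48.5% above 0 and 51.3% below 0. The functional lists keep 4 genes that are also on a list set apart, VEGFA, ME1, CEBPB and NFIL3, and without them the medians were -0.16 for growth factors, -0.015 for NRF2 targets, 0.13 for liver-enriched factors and -0.17 for circadian clock genes.

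**Figure D4:**
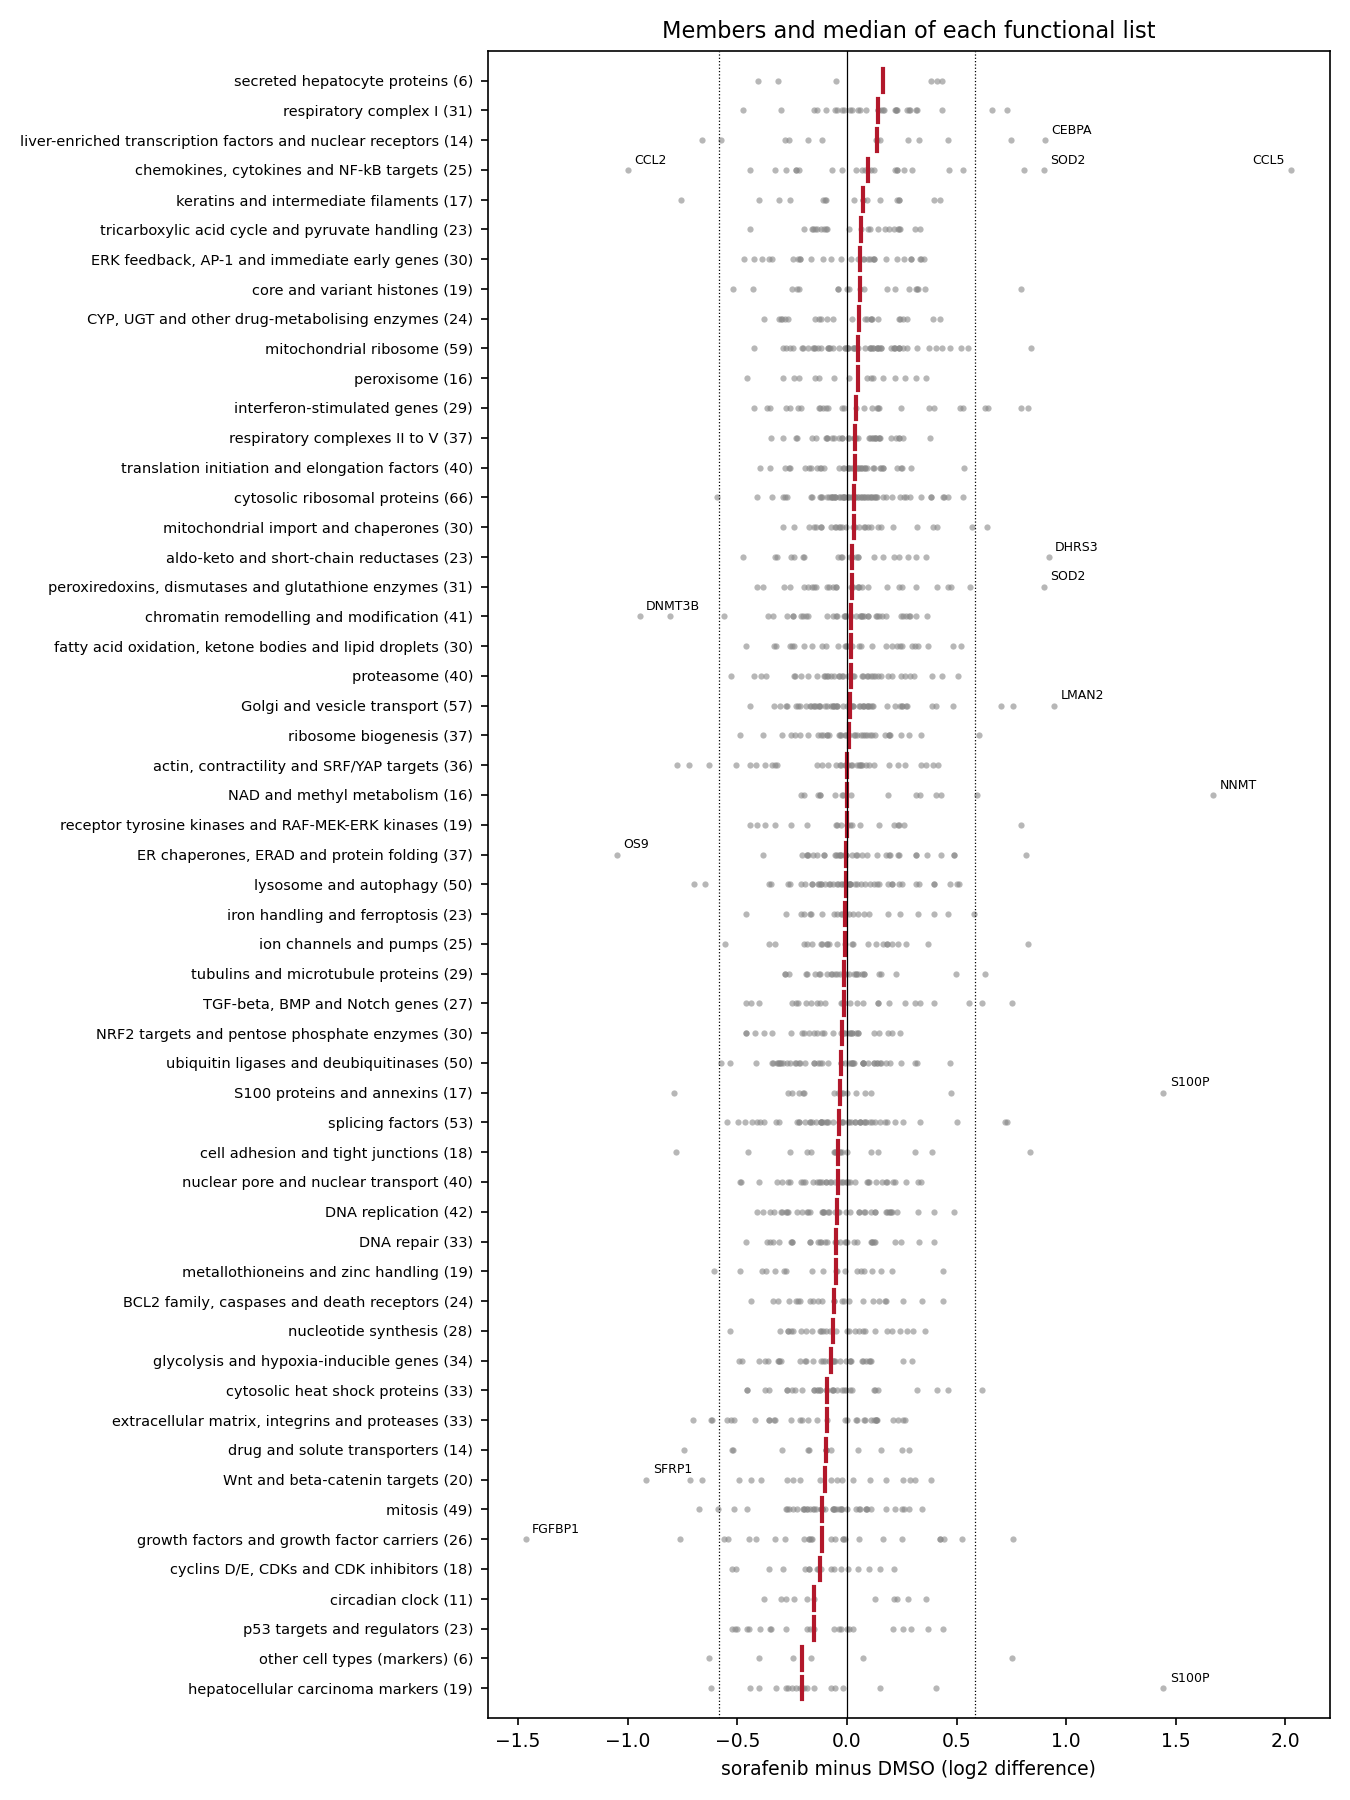
Difference between sorafenib and DMSO (log2, x axis) of each measured member (grey points) of 55 functional lists (rows, number measured in brackets), with the list median as a red bar and dotted lines at 1.5-fold. The medians lie close to 0, while single members such as CCL5, NNMT, S100P and FGFBP1 lie far from their list.

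Measured receptor tyrosine kinases and kinases of the RAF pathway mostly showed small differences in RNA. Of the named kinase targets of sorafenib, only ARAF is given a value here. ARAF, a RAF kinase, read 362 on both arrays, and BRAF, RET and FGFR1 were not above background on both. Of 43 receptor tyrosine kinases and RAF-MEK-ERK kinases, 19 were measured, with a median of 0.00 and 1 member past 1.5-fold. That member was IGF1R, the IGF-1 receptor, which was dim and read 47.5 on the DMSO array, 82.3 on the sorafenib array and 52.9 on the sorafenib probe array. MET, the receptor of hepatocyte growth factor, read 522 and 393 with DMSO and sorafenib, MAP2K1, which encodes MEK1, read 677 and 522, and AXL, the brightest kinase of the list, read 1656 and 1944.

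Genes that ERK signalling raises were also near no difference where they were above background on both arrays. Of 40 ERK feedback, AP-1 and immediate early genes, 30 were measured, 17 above and 13 below 0, with a median of 0.06 and none at 1.5-fold. The largest difference was that of KLF4, a zinc finger factor, at -0.47. The ERK inhibitor SPRY2 was at -0.42, the AP-1 subunit FOSL1 at -0.39 and the ERK phosphatase DUSP6 at -0.36. CCND1, cyclin D1, was the brightest member and read 2898 with DMSO and 2755 with sorafenib, a difference of -0.07.

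Growth factors and their carriers had 8 members above and 18 below 0 of 26 measured, beside 51.3% of all genes below 0, and a median of -0.12. The 7 members with a second probe had a median of 0.021 on it. They are only part of the 26, so these medians are not of the same genes and cannot be compared. FGFBP1, described above, and EREG, the EGF receptor ligand epiregulin, at -0.76, were the 2 members past 1.5-fold lower. The EGF receptor ligand TGFA had -0.54 on its brightest probe and -0.89 on the second (named after its value was seen), and IGFBP7 read 747 with DMSO and 506 with sorafenib. IGFBP3, an IGF carrier, went the other way, with 658 on the DMSO array, 1112 on the sorafenib array and 917 on the sorafenib probe array, and with 0.76 on the brightest probe and 0.53 on the second.

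Chemokines, cytokines and NF-kB targets had members far apart. Of 25 measured, 16 were above and 9 below 0, with a median of 0.09, and 3 were 1.5-fold higher and 1 lower. CCL5 and CCL2, whose genes lie on the same chromosome, 17, were the extremes in opposite directions. SOD2 and the cytokine IL32, which had 0.81 and 0.47 on its 2 probes, were the other higher members. IL18, the brightest member, read 5790 with DMSO and 5516 with sorafenib.

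Of 29 measured interferon-stimulated genes, 15 were above and 14 below 0, with a median of 0.04, and 4 were 1.5-fold higher and none lower, beside 2.02% and 1.82% of all genes. The restriction factor IFITM3 read 38.9 on the DMSO array, 68.8 on the sorafenib array and 61.9 on the sorafenib probe array. ISG20, an exonuclease, read 176 on the DMSO array, 305 on the sorafenib array and 290 on the sorafenib probe array. The immunoproteasome subunit PSMB9 was at 0.64 and the scramblase PLSCR1 at 0.63, and PLSCR1 was only 0.08 on the sorafenib probe array. B2M, the light chain of class I antigen molecules and the brightest member, was at -0.28, so the list as a whole had no common direction.

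Liver-enriched transcription factors and nuclear receptors had 14 of 33 listed genes measured, with a median of 0.14 that became -0.073 with no detection filter. CEBPA, a C/EBP factor of differentiated hepatocytes, read 89.1 on the DMSO array, 167 on the sorafenib array and 166 on the sorafenib probe array. CEBPB, its acute-phase relative and also a member of the ATF4 list, read 1381, 2322 and 2006 on the same arrays. TBX3, a T-box repressor, was at -0.66, and NR5A2, a nuclear receptor of bile acid synthesis, was at -0.57 on its brightest probe and -0.35 on the second. Both C/EBP genes were thus higher on both compound arrays, and TBX3 was at -0.08 on the sorafenib probe array.

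Few genes of mature hepatocyte function were measured. Of 58 secreted hepatocyte proteins, 6 were above background on both arrays, 3 above and 3 below 0, and none at 1.5-fold, and the median of 0.16 became -0.019 with no detection filter. Of 61 drug-metabolising enzymes, 24 were measured, none at 1.5-fold, and ALDH1A1, an aldehyde dehydrogenase and the brightest, was at -0.30 and -0.27 on its 2 probes. Of 14 drug and solute transporters measured, 1 passed 1.5-fold, the hepatocyte uptake carrier SLCO1B3, with 139 on the DMSO array, 82.9 on the sorafenib array and 65.1 on the sorafenib probe array. The retinal reductase DHRS3 read 214 on the DMSO array, 405 on the sorafenib array and 378 on the sorafenib probe array, and was the only one of 23 aldo-keto and short-chain reductases past 1.5-fold.

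Markers of hepatocellular carcinoma had the lowest median of the 55 lists, -0.21, with 3 above and 16 below 0 of 19 measured. S100P, the highest member, stood against this. The secreted phosphoprotein SPP1 (osteopontin) read 620 on the DMSO array, 404 on the sorafenib array and 471 on the sorafenib probe array, and was at -0.62 and -0.47 on its 2 probes. The brightest member, the reductase AKR1B10, was at -0.20. Apart from S100P and SPP1, no member of the list differed by 1.5-fold.

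Matrix, integrin and protease genes had 33 members measured, with a median of -0.09, none 1.5-fold higher and 3 lower. The integrin subunit ITGAV read 701 on the DMSO array, 431 on the sorafenib array and 440 on the sorafenib probe array. SERPINE2, a secreted protease inhibitor, read 3091, 2018 and 2078 on the same arrays, and SPP1 was the third. The integrin subunit ITGA2 was at -0.55, and ITGB1, the brightest member, was at -0.33 on its brightest probe and -0.31 on the second. Outside the list and chosen after their values were seen, the secreted protease PRSS23 read 2157 on the DMSO array, 1250 on the sorafenib array and 1291 on the sorafenib probe array, and the matrix proteoglycan VCAN read 377, 201 and 207. Both sat on nearly equal values on the 2 compound arrays.

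In the actin, contractility and SRF/YAP list, 36 genes were measured with a median of 0.00, and 3 were 1.5-fold lower. THBS1, thrombospondin-1, read 237 on the DMSO array, 139 on the sorafenib array and 128 on the sorafenib probe array. The tropomyosin TPM4 was at -0.72 on its brightest probe but -0.22 on the second and -0.07 on the sorafenib probe array, and smooth muscle actin, ACTA2, was at -0.63. CCN2, a YAP target named after its value was seen, was at -0.41 and -0.64 on its 2 probes. TMSB4X, thymosin beta-4 and the brightest member, read 10425 with DMSO and 10397 with sorafenib.

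Wnt and beta-catenin targets had 7 members above and 13 below 0 of 20 measured, a median of -0.10, and 3 members 1.5-fold lower, beside 51.3% of all genes below 0 and 1.82% that much lower. SFRP1, a secreted Wnt antagonist, read 343 on the DMSO array, 182 on the sorafenib array and 188 on the sorafenib probe array. AXIN2, a feedback inhibitor of the pathway, read 338, 206 and 151 on the same arrays, and TBX3 was the other. The Wnt antagonist DKK1 was not counted at 1.5-fold and was at -0.44 on both of its probes (named after its value was seen). No member was 1.5-fold higher.

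Of 27 measured TGF-beta, BMP and Notch genes, 2 were 1.5-fold higher and none lower, with a median of -0.01. Both were inhibitors of helix-loop-helix factors, ID1 and ID3. ID3 read 1383 on the DMSO array, 2119 on the sorafenib array and 1761 on the sorafenib probe array. SMAD6, an inhibitory SMAD that BMP signals also raise, read 763 and 1005 with DMSO and sorafenib and is named after its value was seen. TGFBR2, a TGF-beta receptor, was at -0.46, and TGFBI, the brightest member, was at -0.01.

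Medians of the cell cycle lists were a little below 0. Of 49 measured mitosis genes, 14 were above and 35 below 0, with a median of -0.11, and 2 were 1.5-fold lower. ANLN, a scaffold of the cleavage furrow, read 340 on the DMSO array, 213 on the sorafenib array and 229 on the sorafenib probe array. CCNB1, cyclin B1, read 414, 275 and 270 on the same arrays, while cyclin B2, CCNB2, named after its value was seen, read 1115 with DMSO and 1415 with sorafenib, so the cyclins B did not share a direction. Of 18 measured cyclins D and E, CDKs and their inhibitors, 5 were above and 13 below 0, and the CDK inhibitor CDKN1A read 2104 with DMSO and 1464 with sorafenib. DNA replication genes had a median of -0.05 over 42 genes, and DNA repair genes -0.05 over 33, neither list with a member at 1.5-fold. The replication clamp PCNA was at -0.38 on its brightest probe and 0.51 on the second.

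Of 23 measured p53 targets and regulators, 7 were above and 16 below 0, with a median of -0.15 and none at 1.5-fold. CDKN1A was the lowest at -0.52, followed by the nuclease AEN at -0.51, with -0.06 on its second probe, PHLDA3 at -0.50 and TP53I3 at -0.46. The highest member of the list was at 0.44. The 6 members with a second probe had a median of 0.03 on it. They are only part of the 23, so these medians are not of the same genes and cannot be compared. BCL2 family, caspase and death receptor genes had a median of -0.06 over 24 genes, none at 1.5-fold. The pore-forming BAX was at 0.44 on its brightest probe and 0.66 on the second.

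Among genes of mitochondria, complex I of the respiratory chain, which takes electrons from NADH, stood highest. Of 31 measured subunits, 22 were above and 9 below 0, with a median of 0.14. NDUFA10 read 231 on the DMSO array, 366 on the sorafenib array and 353 on the sorafenib probe array, and the dim NDUFV3 read 35.5, 59.0 and 53.3. The core subunit NDUFV1 was at 0.43, while NDUFS1, another core subunit, was at -0.47. NDUFS8, the brightest, read 3106 with DMSO and 3752 with sorafenib. Complexes II to V had a median of 0.04 over 37 genes, none at 1.5-fold. Mitochondrial ribosomal proteins had 37 above and 21 below 0 of 59 and a median of 0.05, and 1 was 1.5-fold higher, MRPL4, at 0.84 on its brightest probe and 0.18 on the second. In the list of mitochondrial import and chaperone genes, the protease CLPP was at 0.64 and the translocase subunit TIMM44 at 0.57, beside a median of 0.03 over 30.

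The bulk of protein synthesis and degradation was near no difference. Cytosolic ribosomal proteins had a median of 0.03 over 66 genes, and 1 passed 1.5-fold, RPL7, which read 862 on the DMSO array, 571 on the sorafenib array and 800 on the sorafenib probe array. Translation factors had a median of 0.04 over 40 genes, ribosome biogenesis genes 0.01 over 37, and proteasome genes 0.02 over 40. Splicing factors had a median of -0.04 over 53 genes, with the serine-arginine protein SRSF11 at 0.73 and the splice acceptor factor U2AF1 at 0.72, which had 0.28 on its second probe. HNRNPA2B1, a bright RNA-binding protein, read 5260 on the DMSO array, 3604 on the sorafenib array and 3565 on the sorafenib probe array, and had -0.23 on its second probe.

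Protein folding genes were in separate lists for the endoplasmic reticulum and the cytosol. Endoplasmic reticulum chaperone and degradation genes had a median of 0.00 over 37 genes, with FKBP2, a prolyl isomerase, at 0.82 and OS9 at -1.05 as the only members past 1.5-fold, and HSP90B1, the brightest, at 0.18. Cytosolic heat shock proteins and chaperonins had 9 members above and 24 below 0 of 33, a median of -0.09, and 1 member past 1.5-fold, DNAJB2, a J-domain co-chaperone, at 0.62. Lysosome and autophagy genes had a median of 0.00 over 50 genes, and the autophagy proteins WIPI1, at -0.70, and OPTN, at -0.65, were past 1.5-fold. SQSTM1, the brightest autophagy gene and a cargo receptor, read 7900 with DMSO and 7966 with sorafenib.

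Redox and metal genes were likewise close to 0. Of 30 measured NRF2 targets and pentose phosphate enzymes, none passed 1.5-fold, the median was -0.02, and GCLC, the rate-limiting enzyme of glutathione synthesis, read 626 with DMSO and 468 with sorafenib. SOD2 was the only one of 31 peroxiredoxin, dismutase and glutathione genes past 1.5-fold. GPX4, which reduces lipid peroxides, read 1863 with DMSO and 2565 with sorafenib, and was at 0.46 on its brightest probe and 0.45 on the second. Metallothionein and zinc genes had a median of -0.05 over 19 genes, with the zinc importer SLC39A10 at -0.61. Iron and ferroptosis genes had a median of -0.01 over 23.

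In other metabolism, NNMT stood alone beside AHCY, which breaks down the by-product of methylation and read 1179 on the DMSO array, 1779 on the sorafenib array and 1793 on the sorafenib probe array, a difference of 0.59. The remaining 14 of 16 measured NAD and methyl genes were under 1.5-fold, and the list's median was 0.00. Glycolysis and hypoxia-inducible genes had 11 above and 23 below 0 of 34, with a median of -0.07 and none at 1.5-fold, and the brightest, the enolase ENO1, was at 0.11. Fatty acid oxidation genes had a median of 0.02 over 30 genes, tricarboxylic acid cycle genes 0.06 over 23 and nucleotide synthesis genes -0.06 over 28. Chosen after its value was seen, HPGD, which inactivates prostaglandins, read 548 on the DMSO array, 294 on the sorafenib array and 267 on the sorafenib probe array.

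Among the remaining lists, nuclear pore, peroxisome, ubiquitin and circadian clock genes had no member past 1.5-fold. Chromatin genes had a median of 0.02 over 41 genes, with the DNA methyltransferase DNMT3B at -0.95 and -0.48 on its 2 probes and the Polycomb subunit EED at -0.81. Golgi and vesicle genes had the cargo lectin LMAN2 at 0.94, the Golgi matrix protein GOLGA2 at 0.76 and the endosomal GTPase RAB5A at 0.70, beside a median of 0.01 over 57. Of the cell junction genes, claudin-3, CLDN3, was at 0.84 and cingulin, CGN, at -0.78, and both were dim. The annexin ANXA4 was at -0.79, the desmosomal plakophilin PKP2 at -0.76, the cation channel TRPM4 at 0.83, the tubulin TUBB2B at 0.63 and the histone H2BC21 at 0.80. Of the markers of other cell types, CD14, a monocyte receptor, read 117 with DMSO and 197 with sorafenib, and all others but ACTA2 were under 1.5-fold.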

How the data were processed

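RNA of PLC-PRF-5 cells was extracted with TRIzol, amplified with an Ambion kit and hybridised to an Illumina beadchip of 47323 probes, with 1 array per group. The authors deposited 2 tables of probe intensity. The first also holds a deposited detection p-value for each intensity, and its p-values were used with both tables. In it 98.2% of sorted values above the floor were equal on all arrays, so the first was already quantile normalized, and its values were floored at 1. The other deposited table holds background-subtracted intensity that is not normalized between arrays, with a mean of 183 for DMSO, 159 for sorafenib and 164 for the sorafenib probe, and was used here. No source used here names the scanner software or normalization.

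Background was corrected by normexp, fitted through the detection p-values (offset 16), and intensities were quantile normalized over the 3 arrays and put on a log2 scale with limma 3.58.1 in R 4.3.3, and tested on simulated data. Later steps used Python 3.11.15, numpy 2.4.6 and pandas 2.3.3. Adding the offset shrinks the differences of dim genes. The platform annotation paired 30113 probes with 1 gene symbol and 8 with several, and listed no gene for 17202. Of the probes with 1 symbol, 99.9% matched RefSeq's GRCh38.p14 table by Entrez identifier. The brightest of the 11325 probes above background on both arrays stood for each gene. A rule names the 15 highest and 15 lowest genes, those with 2 probes past 1.5-fold the same way, in each list its brightest member and up to 4 others of largest difference, and kinase targets of sorafenib, of which 1 is not reported here. The genes, the lists and the rule were chosen with earlier results of these data known. No test was made, and precision is limited by having 1 array a group. Alternatives varied the offset, the table, the normalization, the detection limit, the probe chosen and the fold limit.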

Additional observations from a re-analysis of the deposited data

How the results depend on the processing

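No paired analysis was possible because each group had 1 array and no result came from a test. The 17 genes 2-fold higher and 9 lower became 10 and 2 with an offset of 50, 51 and 40 in the authors' quantile normalized table, 11 and 32 with no normalization between arrays and 14 and 18 with median scaling. The share of these calls that were higher was 65.4%, against 83.3%, 56.0%, 25.6% and 43.8% in the same order. The median over all genes was -0.20 with no normalization and -0.12 with median scaling, so under those settings differences are relative to these shifts. The counts were 35 and 31 with detection on at least 1 array or with no detection filter (53.03% higher), 180 and 162 at 1.5-fold, 4 and 0 at 3-fold and 2 and 1 where both probes had to pass. They were 10 and 4 in the middle and brightest terciles alone, a setting chosen after seeing the data. The counts were within 1.5 times of the main ones with 2 arrays normalized together, detection on all 3 arrays, detection at 0.05, the mean of probes and the probe brightest with DMSO.

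None of 302 named genes changed sign while past 1.5-fold. Under no normalization 65 of them newly passed 1.5-fold and 22 no longer did, and with an offset of 50, 31 no longer did. The median of secreted hepatocyte proteins was -0.019 and that of liver-enriched factors -0.073 with no detection filter, and that of circadian clock genes was 0.13 with detection on at least 1 array and 0.17 in the brighter terciles, each against the opposite sign in the main setting. The cause was not tested. Genes in the dimmest tercile lie near background, where probe noise and the offset limit what can be read.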

Other observations

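Apart from FOS and EGR1, genes above background on 1 array only were left out of the results above. There were 611 seen only with sorafenib and 502 only with DMSO. The lowest intensity above background was 34.8 on the DMSO array and 34.2 on the sorafenib array, and the dim side was taken as that or as the measured value if higher. This gave at least 2.22-fold lower for the potassium channel KCNK4, at least 2.21-fold lower for the T-box factor TBX2 and at least 2.20-fold lower for the deubiquitinase OTUB2, and 0 genes at least 2-fold higher.

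Of 2781 probes above background on both arrays without a single listed gene, 5 were 2-fold higher with sorafenib and 2 were 2-fold lower, and 58 (2.09%) were 1.5-fold higher and 51 (1.83%) 1.5-fold lower, beside 2.02% and 1.82% of the annotated genes.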
